A study of Danio rerio with 8 samples.

Results

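Chordin and 9 other genes for secreted regulators of bone morphogenetic protein (BMP) signalling were followed in zebrafish embryos whose fibroblast growth factor (FGF) receptors had been inhibited. The genes were taken by symbol from the authors' comparison of RNA levels: the antagonist genes chd (chordin), nog1, nog2, fsta and fstb, the protease inhibitor gene szl (sizzled), the chordin protease genes tll1 and bmp1a, and the cofactor genes twsg1a and twsg1b. All 10 were found, among 33843 loci in the table. Whole embryos at the dome stage, a late blastula stage, had been given SU5402, an FGF receptor inhibitor, at 20 µM from the 2-cell stage, or an equal volume of its solvent DMSO as control. The labels name no strain, mutation or transgene for either condition. There were 2 RNA-seq samples of SU5402 embryos and 2 of control embryos, and the authors pooled each pair into 1 value per locus. That value is in FPKM, fragments scaled to transcript length and library size, which allows levels of genes of different length to be set side by side. No value below therefore carries a replicate error, the depth of each sample is unknown, and the labels do not state whether the samples of a condition came from separate clutches, so the authors' p-values may measure technical spread only.

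BMP ligands pattern the back-to-belly axis of the early embryo through a gradient that is high ventrally and low dorsally. Chordin, secreted from the dorsal organizer, binds BMP ligands and keeps them from their receptors, and loss of chordin in zebrafish expands ventral tissues. Tolloid-family metalloproteases, among them the products of tll1 and bmp1a, cut chordin and free the ligand. Sizzled, a secreted Frizzled-related protein made ventrally in response to BMP, blocks those proteases. Noggin and follistatin proteins bind ligands directly, and twisted gastrulation proteins bind both chordin and BMP and can favour either storage or release of the ligand.

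SU5402 embryos held far less chordin RNA and more sizzled RNA than control embryos, while no call was made for the other regulators that could be tested. In the authors' deposited table a locus is called when its q-value, the authors' adjusted p, is at most 0.05. Of the 10 genes, 7 had been tested, and chd was called lower, szl was called higher and 5 were not called. Over all 12757 tested loci, 5.64% were called, 3.58% higher and 2.06% lower. The call of szl, unlike that of chd, was lost when the authors' p was adjusted over every tested locus (Benjamini-Hochberg adjusted p = 0.0742). The median log2 change, SU5402 over control, was -0.29 over the 7 tested regulators and 0.04 over the 12715 tested loci whose ratio is finite. Both medians rest on the authors' deposited table, and the 7 passed its filter on low values, so they do not stand for all 10.

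**Figure D1:**
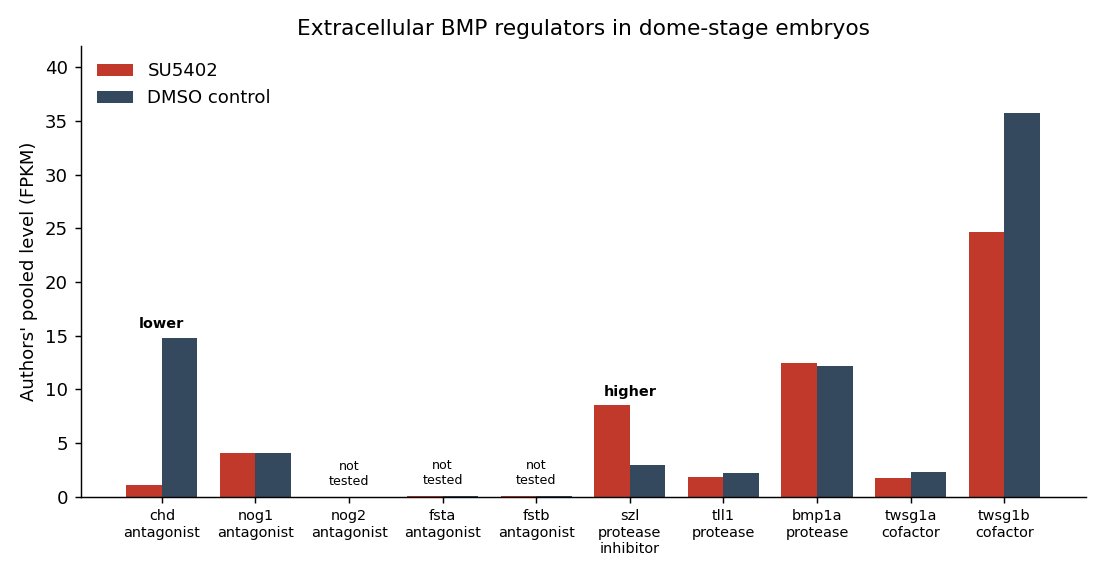
Levels of the 10 regulators in SU5402 embryos (red) and DMSO control embryos (dark), in FPKM on an axis that starts at 0. Each bar is the authors' 1 pooled value, so there are no error bars; "lower" and "higher" mark the calls of the authors' deposited table. The chd bar stands at 1.13 FPKM in SU5402 against 14.8 in control, the szl bar at 8.53 against 2.91, and the bars of nog1 and bmp1a are nearly level.

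Among the antagonists, chd had a pooled level of 1.13 FPKM in SU5402 embryos and 14.8 FPKM in control embryos. In the authors' deposited table it fell by 3.72 on the log2 scale, and the control level was 13.2 times the SU5402 level (q = 0.000383). Its p of 5e-05 is the smallest in the authors' deposited table and was shared by 108 loci. With the authors' p adjusted over every tested locus by the Benjamini-Hochberg method, here named the table-wide adjustment, chd had an adjusted p of 0.00591. Under that adjustment 1.65% of tested loci passed in either direction, and 0.651% of tested loci passed as lower. Of the 12715 tested loci with finite ratios, 9 had a lower log2 change than chd, and 12705 had a higher one. The gene lies on chromosome 15 of the Zv9 build from 46135867 to 46173294, and no other locus of the table overlaps it. In RNA from whole embryos, fewer chordin-expressing cells and less chordin RNA per cell cannot be told apart.

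The noggin gene nog1 was almost level between conditions. It had 4.03 FPKM in SU5402 embryos and 4.11 FPKM in control embryos, with a log2 change of -0.03 in the authors' deposited table (q = 0.967). The gene lies on chromosome 3 of Zv9 from 10693519 to 10695681. Its paralog nog2 was listed at 0 in both conditions. The follistatin gene fsta was listed at 0.0395 FPKM in SU5402 and 0.0834 FPKM in control embryos. The second follistatin gene, fstb, was listed at 0.0854 FPKM in SU5402 and 0.0460 FPKM in control embryos. These 3 genes were not tested by the authors, and they lie far below 0.947 FPKM, the lowest level that any tested locus had in its higher condition. Of the summed level of chd, nog1, nog2, fsta and fstb, the transcripts of chd and nog1 thus made up nearly all in either condition. Antagonists outside these genes are not counted here.

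Because the levels are per length, the antagonists can be added up. The 5 antagonist genes summed to 5.28 FPKM in SU5402 embryos and 19.1 FPKM in control embryos. Of that sum, chd made up 21.3% in SU5402 and 77.8% in control embryos. The share of nog1 was 76.3% in SU5402 and 21.6% in control embryos. Among these 5 genes, the most abundant transcript was therefore nog1 in SU5402 embryos and chd in control embryos, although the level of nog1 itself was nearly the same. Other secreted regulators, taken from a further list below, are not part of this sum, so the shares hold for the 5 genes only. These sums and shares are descriptions of pooled values, with no test.

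The protease inhibitor gene szl showed the opposite change to chd. Its pooled level was 8.53 FPKM in SU5402 embryos and 2.91 FPKM in control embryos. In the authors' deposited table it rose 2.93-fold, a log2 change of 1.55 (q = 0.00744). The call was lost with the table-wide adjustment (adjusted p = 0.0742 from the authors' p), under which 0.996% of tested loci were higher. Of the same 12715 loci, 252 had a higher log2 change than szl. The gene lies on an unplaced scaffold of Zv9, Zv9_scaffold3556, from 21745 to 26239, and no other locus of the table overlaps it.

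The ratio of chordin to sizzled transcripts was turned over. The level of chd was 0.132 times that of szl in SU5402 embryos and 5.09 times that of szl in control embryos. Set against the protease gene bmp1a, szl stood at a ratio of 0.684 in SU5402 and 0.240 in control embryos, and chd at 0.0903 in SU5402 and 1.22 in control embryos. In SU5402 embryos, sizzled RNA was thus the more abundant of the pair, and in control embryos chordin RNA was. The ratios compare RNA levels only, and protein was not measured.

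**Figure D2:**
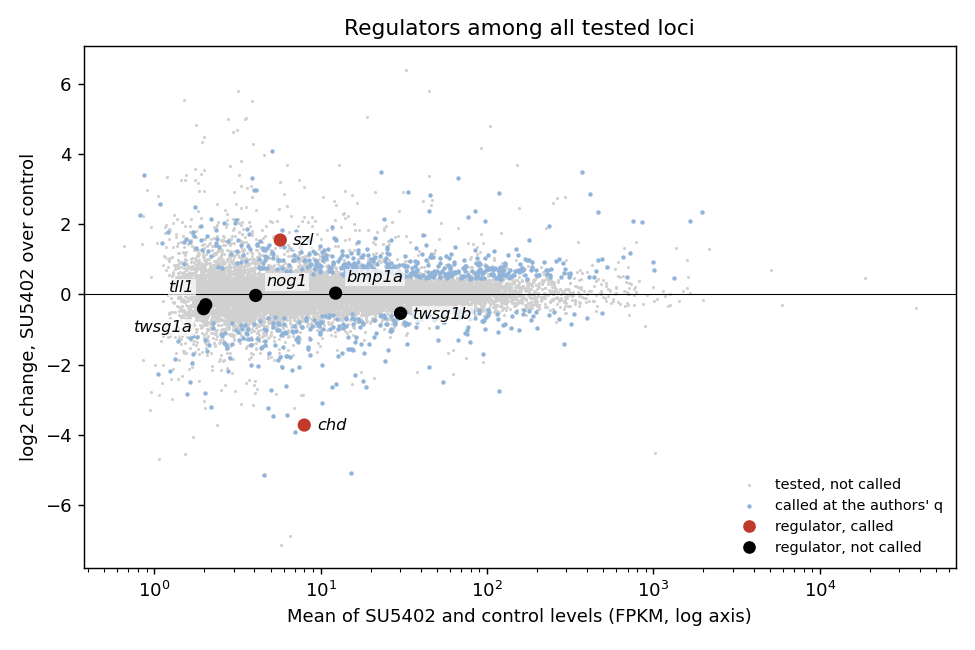
The log2 change of every tested locus with a finite ratio (SU5402 over control) against the mean of its SU5402 and control levels in FPKM, on a log axis. Pale points are tested loci that were not called, blue ones were called by the authors' q, and large points are the 7 tested regulators, red where called. The point of chd at -3.72 lies below nearly all loci, that of szl at 1.55 lies among the rises, and the other 5 lie between -0.53 and 0.04.

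Neither chordin protease gene was called. The gene bmp1a, which encodes the BMP1 metalloprotease, had 12.5 FPKM in SU5402 embryos and 12.1 FPKM in control embryos, a log2 change of 0.04 in the authors' deposited table (q = 0.916). With levels scaled to the upper quartile of tested loci, its log2 change was -0.05, so its small difference has no stable sign. The gene tll1, zebrafish tolloid, had 1.83 FPKM in SU5402 embryos and 2.25 FPKM in control embryos, a log2 change of -0.29 in the authors' deposited table (q = 0.592). The bmp1a transcript was the main one of the pair in both conditions, at 6.80 times the level of tll1 in SU5402 and 5.41 times in control embryos. Together the protease genes summed to 14.3 FPKM in SU5402 and 14.4 FPKM in control embryos. On Zv9, bmp1a lies on chromosome 8 from 53433781 to 53571387 and tll1 on chromosome 1 from 19514164 to 19607327.

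The twisted gastrulation genes were listed somewhat lower in SU5402 embryos, and neither was called. The gene twsg1b had the highest level of all 10 regulators in both conditions, at 24.7 FPKM in SU5402 embryos and 35.8 FPKM in control embryos. Its log2 change was -0.53 in the authors' deposited table (q = 0.357). Its paralog twsg1a had 1.70 FPKM in SU5402 embryos and 2.26 FPKM in control embryos, a log2 change of -0.40 in the authors' deposited table (q = 0.483). The ratio of twsg1b to twsg1a was 14.5 in SU5402 and 15.9 in control embryos. The share of reads that fit both paralogs, and how the authors assigned such reads, is not given in the sources used here. On Zv9, twsg1a lies on chromosome 2 from 55427608 to 55462812. The locus of twsg1b lies on unplaced Zv9 sequence, Zv9_NA933, from 868 to 3012. It shares that region with 1 other locus, which has no gene name, was not tested and reached at most 1.46 FPKM. The twsg1b locus spans 2145 bp, against 35205 bp for twsg1a. Whether it holds the whole gene was not tested, which limits the comparison of its level with the others.

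The smallest changes called at like levels were set beside the 5 uncalled values. Each count of loci of like level includes the gene itself. They are no limit of detection, because a call also depends on the spread of each locus, which is not given. For twsg1b, 2042 tested loci had a mean level within 1.5-fold of its own, 114 of them (5.58%) were called in the authors' deposited table, and the smallest called fall had a log2 change of -0.49. Loci with a smaller change than twsg1b were thus called at its level. In that range 277 loci, twsg1b among them, had a change at least as large as its own in either direction. For tll1, the smallest called fall among 1934 loci of like level was -0.81 on the log2 scale of the authors' deposited table, and for twsg1a, among 1843 loci, it was the same -0.81. Changes the size of those of tll1 and twsg1a were therefore not called for any locus of like level. For bmp1a the smallest called change in either direction was 0.48, among 2617 loci of like level in the authors' deposited table. For nog1 it was 0.65, a called fall of -0.65, among 2929 loci. Far larger changes also went uncalled in such ranges. In that of nog1, foxd3 had a log2 change of -7.12 in the authors' deposited table (q = 0.392). In that of tll1, spry4 had -4.55 (q = 0.0523).

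The order of the levels differed between the conditions mainly through chd and szl. In SU5402 embryos the order was twsg1b, bmp1a, szl, nog1, tll1, twsg1a and chd, from highest to lowest among the tested genes. In control embryos it was twsg1b, chd, bmp1a, nog1, szl, twsg1a and tll1. The gene chd stood last of these in SU5402 embryos and second in control embryos. Without replicate values, whether neighbours in either order differ beyond their spread cannot be tested.

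The loci nearest to chd in level and change were named by the distance between log2(FPKM + 1) values over the 2 pooled conditions, among tested loci with a single gene name. The nearest was dact2 at 1.07 FPKM in SU5402 and 11.5 FPKM in control embryos, at a distance of 0.340 on that scale. The next were runx2b with 1.89 FPKM in SU5402 and 13.8 FPKM in control embryos and ENSDARG00000088259 with 1.75 FPKM in SU5402 and 10.7 FPKM in control embryos. They were followed by gsc with 0.866 FPKM in SU5402 and 9.50 FPKM in control embryos, and dusp6 with 2.13 FPKM in SU5402 and 18.2 FPKM in control embryos. Of these 5, the authors' deposited table made no call for runx2b (q = 0.242), and dact2, gsc and dusp6 also passed the table-wide adjustment. The 5 nearest to szl were MDFI, tp53inp1, si:dkey-13m3.1, zgc:163083 and foxj2, at distances between 0.0833 and 0.239. Of these, MDFI had 8.23 FPKM in SU5402 and 2.73 FPKM in control embryos and foxj2 had 7.16 FPKM in SU5402 and 2.70 FPKM in control embryos. The authors' deposited table called both higher, and both passed the table-wide adjustment. The other 3 were not called: tp53inp1 (q = 0.580), si:dkey-13m3.1 (q = 0.129) and zgc:163083 (q = 0.168). Of these, tp53inp1 had 8.39 FPKM in SU5402 and 2.61 FPKM in control embryos, very near szl. Both tp53inp1 and zgc:163083 also have another locus with other values. Likeness over 2 pooled values is a weak measure and describes these levels only.

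Further secreted or surface regulators of BMP or of chordin cleavage were taken from a list of 40 symbols, of which 31 were found at 33 loci and 7 loci were tested. By the authors' q, 2 of the 7 were called lower and none higher, against 2.06% of all tested loci called lower. The gene rgma encodes a membrane-anchored protein that acts as a BMP co-receptor in mammals. It had 3.11 FPKM in SU5402 embryos and 8.76 FPKM in control embryos, and fell by 1.49 on the log2 scale of the authors' deposited table (q = 0.000383), a call that the table-wide adjustment kept. The gene sfrp1a, of the same secreted Frizzled-related family as szl, had 24.0 FPKM in SU5402 and 43.2 FPKM in control embryos. It fell by 0.85 on the log2 scale of the authors' deposited table (q = 0.00616), opposite in direction to szl, and the call was lost under the table-wide adjustment (adjusted p = 0.0643 from the authors' p). The second BMP1-type protease gene, bmp1b, had 5.90 FPKM in SU5402 and 5.83 FPKM in control embryos, and the authors' deposited table gave it a q of 0.981. The median log2 change of the 7 was -0.18, and 9 loci of the list were listed at 0 in both conditions, among them nog3.

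**Figure D3:**
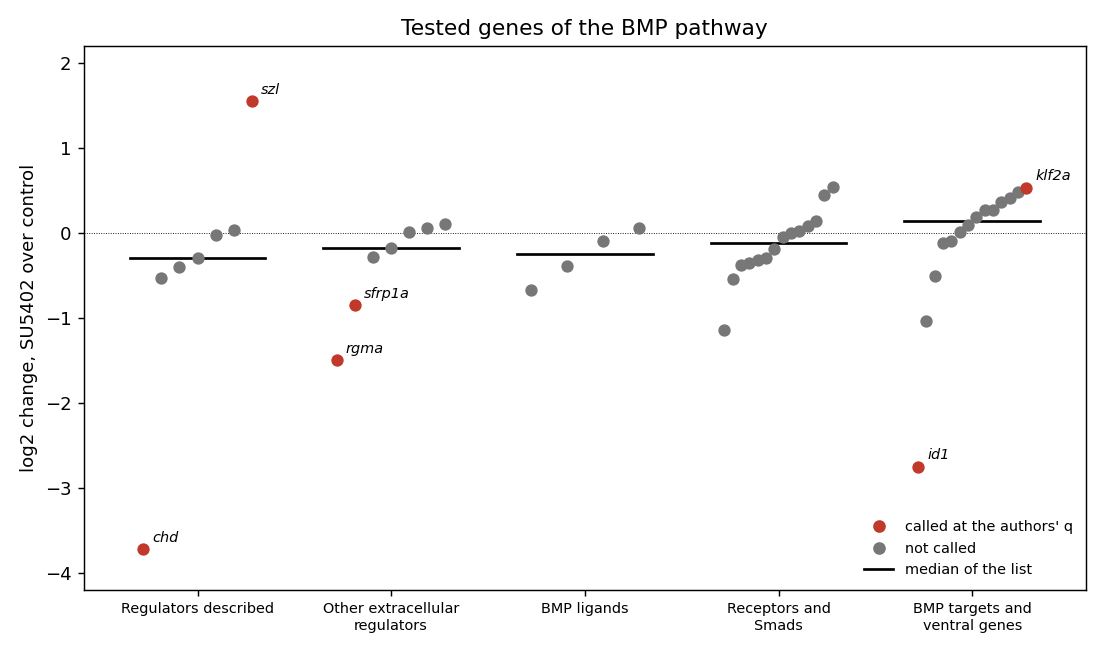
The log2 change (SU5402 over control) of each tested locus in 5 lists: the regulators described, other extracellular regulators, BMP ligands, receptors with Smads and related genes, and BMP targets with ventral genes. Red points were called in the authors' deposited table and are named, grey points were not, and a black line marks each list's median. The 2 values farthest from 0 are chd at -3.72 and id1 at -2.75, and no ligand, receptor or Smad gene was called.

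No BMP ligand gene that had been tested was called, and most ligand loci were not tested. Of 17 ligand symbols, 16 were found and 4 loci were tested. The authors' deposited table called none of the 4 in either direction, where 5.64% of all tested loci were called. With so few loci at that share, the lack of a call is no result about the ligands. The median log2 change of the 4 was -0.24. The ligand gene bmp2b had 19.0 FPKM in SU5402 and 24.9 FPKM in control embryos, and bmp7a had 23.6 FPKM in SU5402 and 22.6 FPKM in control embryos. The level of chd was 0.0594 times that of bmp2b in SU5402 embryos and 0.596 times in control embryos. Against bmp7a it was 0.0477 times in SU5402 embryos and 0.656 times in control embryos. The organizer ligand gene admp, made dorsally like chordin, had 5.94 FPKM in SU5402 and 9.46 FPKM in control embryos and a q of 0.287 in the authors' deposited table. The ligand gene bmp4 was listed at 0.160 FPKM in SU5402 and 0.433 FPKM in control embryos and was not tested.

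Downstream of the ligands, a list of receptors, Smads and related genes was read, not all of them BMP receptors or Smads. None of its 14 tested loci was called in the authors' deposited table. Their median log2 change was -0.12, and the lowest value was -1.14, for the inhibitory Smad gene smad7 with 3.64 FPKM in SU5402 and 8.02 FPKM in control embryos (q = 0.0617). Another locus of smad7 was not tested, at 0.867 FPKM in SU5402 and 0.989 FPKM in control embryos. The gene smad7 was named after its value was seen. Among 14 tested BMP targets and ventral genes, 1 was called higher and 1 lower in the authors' deposited table, where 5.64% of all tested loci were called, and 12 were not called. The one lower was id1, a BMP-responsive gene, with 30.4 FPKM in SU5402 and 204 FPKM in control embryos. The one higher was klf2a, with 46.0 FPKM in SU5402 and 31.8 FPKM in control embryos, a call lost under the table-wide adjustment (adjusted p = 0.197 from the authors' p). The authors' calls of szl and id1, both known to respond to BMP, were thus in opposite directions, and id1 also passed the table-wide adjustment while szl did not. The median log2 change of the 14 was 0.14.

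A list of genes linked to the dorsal organizer, not all of them particular to it and without the regulators, was read beside chd. Of 16 tested loci, 7 were called lower, 1 higher and 8 not at all in the authors' deposited table. Over all tested loci, 2.06% were lower and 3.58% higher. With the table-wide adjustment 4 were lower and none higher, against 0.651% lower and 0.996% higher over all tested loci. By the authors' q, the called falls of largest size were foxd5, gsc, sp5l and cxcr4a. The higher one was the Nodal antagonist gene lft2. Of these, foxd5, gsc and cxcr4a passed the table-wide adjustment. The calls of sp5l (adjusted p = 0.117 from the authors' p) and lft2 (adjusted p = 0.187 from the authors' p) were lost. The largest fall of all, that of foxd3, was not called (q = 0.392). Its level was 0.0820 FPKM in SU5402 and 11.4 FPKM in control embryos, a log2 change of -7.12. Among the called falls, gsc, the organizer homeobox gene goosecoid, had a log2 change of -3.46 in the authors' deposited table, near the -3.72 of chd. FGF feedback and effector genes were listed as a readout of the inhibitor. Among 13 tested, 6 were lower, 2 higher and 5 not called in the authors' deposited table, and their median log2 change was -1.27. The largest called falls there were spry2, dusp6, ntla and spred2a, and the rises were tbx16 and spred2b. The largest fall, that of spry4, was not called (log2 change -4.55, q = 0.0523). The level of tbx16 was 2680 FPKM in SU5402 and 634 FPKM in control embryos. With the table-wide adjustment 4 were lower and 1 higher, and the calls of spry2, spred2a and spred2b were lost. These counts stand against the same shares over all tested loci. Both lists were chosen with earlier results of these data known, so their counts are descriptions and not a test.

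Markers of other cells of the embryo were read beside these changes. In the yolk syncytial layer list 1 of 10 tested loci, apoeb, was called higher and none lower in the authors' deposited table, and the summed level over the 14 loci found was 818 FPKM in SU5402 and 496 FPKM in control embryos. Without apoeb, the other 13 loci summed to 156 FPKM in SU5402 and 168 FPKM in control embryos. Over the 10 tested loci, apoeb included, the median log2 change was -0.20. In the enveloping layer list 2 of 10 tested loci were called higher (klf6a and krt8) and 1 lower (cldne) in the authors' deposited table, and the summed level was 1138 FPKM in SU5402 and 1017.5 FPKM in control embryos. In the germ plasm list 1 of 10 tested loci, tdrd6, was called higher in the authors' deposited table, with a summed level of 248 FPKM in SU5402 and 242 FPKM in control embryos. Over all tested loci the shares were 3.58% higher and 2.06% lower. With the table-wide adjustment the call of apoeb was kept, and those of klf6a, krt8, cldne and tdrd6 were lost. Listed at 0 in both conditions were apoa2 and apoea of the first list and anxa1c of the second. The part of these cells in the values of chd and szl was not tested.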

How the data were processed

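RNA-seq of 4 samples was read from the authors' table of their own comparison. Per the submitters' processing notes, TopHat2, Picard, Cufflinks and Cuffdiff and the Zv9 (danRer7) build were used; for their versions and settings the sources used here give nothing. Each locus has, per the file headers, 1 FPKM per condition, the log2 fold change of SU5402 over control, a score that Cuffdiff calls its test statistic (not used here), and the p-value and q-value that the authors deposited. Of 33843 loci, 12757 were tested, 21085 were not and 1 had too little data. Depth per sample is unknown and FPKM is relative to the rest of each condition, so a shift in the RNA content of whole embryos would not show.

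Replicates could not be tested against each other, because the deposited table gives them no values of their own. The calls are those of the authors' q at 0.05. The authors' p-values were also adjusted by the Benjamini-Hochberg method over all tested loci, which gave larger values than the deposited q. The set of loci over which the authors adjusted is not given. The adjustment over all tested loci was tried on simulated data with normal errors of equal size. That checks the computation only and says nothing about the calls in these data. The alternatives were pseudocounts of 1 and 0.1 FPKM, level and fold minimums, and centring on the median or upper quartile. Genes named were the 10 regulators, up to 4 called members per other list and direction, the 5 loci nearest to chd and to szl, and bmp2b, bmp4, bmp7a, admp, dusp6 and gsc. Named outside this rule, after their values were seen, were bmp1b, smad7, nog3, foxd3, spry4, apoa2, apoea and anxa1c. The members and the 9 other lists were chosen with earlier results of these data known. Of the 10 symbols, 9 are current in RefSeq (assembly GRCz12tu) and chd is an older name of chrd. The start given is the deposited one plus 1. ATAC-seq (4 samples) was not analysed here. A gene of the enveloping layer list is not reported here. Python 3.11.15, pandas 2.3.3, NumPy 2.4.6, SciPy 1.17.1 and matplotlib 3.10.9 were used.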

Additional observations from a re-analysis of the deposited data

How the results depend on the processing

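With the table-wide adjustment, 1 regulator was called in place of 2: chd kept its call and szl lost it (adjusted p = 0.0742 from the authors' p). Both stayed called with at least 1 FPKM required in the higher or in the lower condition, or a fold of at least 2. These minimums filtered the existing calls without a new p, so that outcome follows from the levels given above. Of 28 recomputed log2 changes of the 7 tested regulators, 24 moved by less than 0.1, and no called one changed sign. A pseudocount cannot change a sign, and centring shifted values by only 0.04 (median) or 0.09 (upper quartile). The largest shift was that of chd, to -2.90 with a pseudocount of 1 FPKM. The median over the 7 lay between -0.38 and -0.20 in the alternatives; its upper quartile scaling, which gave -0.38, was chosen after seeing the data. Leaving out a replicate was not run, because the table holds no value per replicate. No paired analysis was possible because both replicates of a condition are pooled into 1 value. Depth per sample is unknown, and the authors did not test nog2, fsta and fstb.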
